A study of Mus musculus with 18 samples.

Results

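Oxidative phosphorylation is carried out in the inner mitochondrial membrane by 5 multi-subunit complexes, and most of their subunits are encoded by genes of the nucleus. The genes described here are those whose symbols start with Ndufa, Ndufb, Ndufc, Ndufs, Ndufv, Uqcr, Cox4 to Cox8 or Atp5, together with Sdha to Sdhd, Cyc1 and Cycs. This rule, which uses names and no measured value, found 92 of the 17672 genes in the count table. By role, 42 of the 92 belong to complex I (NADH dehydrogenase), 4 to complex II (succinate dehydrogenase), 8 to complex III (the cytochrome bc1 complex), 18 to complex IV (cytochrome c oxidase) and 15 to complex V (ATP synthase), and Cycs encodes cytochrome c. The remaining 4 (Cox7a2l, Atp5s, Atp5sl and Ndufa4l2) were placed in no complex. Of the 42 in complex I, 7 are core subunits that carry the catalytic centres, 28 are accessory subunits, and 7 are assembly factors (Ndufaf genes) that share the name but are not part of the finished enzyme, which leaves 81 structural subunits including cytochrome c. Ndufa4, named after complex I, was counted with complex IV, where its product resides.

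Electrons enter the chain at complexes I and II, pass through ubiquinone to complex III and by way of cytochrome c to complex IV, and the proton gradient built on the way drives ATP synthase. Brown adipocytes are rich in mitochondria and dissipate this gradient as heat through UCP1 when noradrenaline acts on their β-adrenergic receptors. β-Adrenergic signals raise cAMP and also release ABHD5, the co-activator of the triglyceride lipase ATGL, so that fatty acids are set free from lipid droplets.

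The data are RNA-seq gene counts of 18 libraries from an immortalised mouse brown preadipocyte line, differentiated in culture, that carries a stable shRNA against Abhd5 and a doxycycline (Dox)-inducible, shRNA-resistant ABHD5 tagged with mCherry. All 6 groups therefore share both the knockdown and the inducible construct; the labels call the genotype of cells without Dox "ABHD5 KD" and of cells with Dox (1 µg/ml) "WT". In each state the cells were stimulated for 3 h with vehicle (DMSO), with 10 nM isoproterenol (ISO), which activates β-adrenergic receptors, or with 20 µM SR-3420, a ligand of ABHD5, with 3 replicates per group. A single line was used, and no Dox-treated cells without the inducible construct were among the samples analysed, so Dox itself and re-expressed ABHD5 cannot be told apart. The comparisons address whether the OXPHOS genes respond to β-adrenergic stimulation, to the ABHD5 ligand and to ABHD5 itself.

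Abhd5 was counted at 41 to 54 reads in the DMSO libraries without Dox and at 431 to 1211 reads in the DMSO libraries with Dox. As CPM, counts scaled to a common TMM-adjusted library size of 1000000, the level was 52.5 ± 4.92 against 572 ± 83.7 (SD over 3 libraries), and the edgeR quasi-likelihood test gave a log2 difference of 3.45 with an SE of 0.17 and an adjusted p of 1.81e-14. ISO itself raised Abhd5, to 149 ± 22.4 CPM without Dox (log2 fold change 1.51, adjusted p = 2.85e-07) and to 831 ± 24.8 CPM with Dox (0.54, adjusted p = 0.00406), and the difference between the 2 changes passed (-0.97, adjusted p = 0.0205). The ISO comparisons therefore do not hold Abhd5 fixed in either state. With SR-3420 the log2 fold changes of Abhd5 were 0.53 and 0.27, and neither passed. Total counts were 689910 to 1956565 per library (median 1145729), of which the 92 genes held 0.809% to 1.55%. The library SR-3420 with Dox replicate 1 stood apart, with 35.6% of its counts in its 10 most abundant genes and the lowest TMM factor, 0.775, of factors that reached 1.13. Of 7 muscle markers, all were at 3 counts or fewer in every library, as were 3 of 6 macrophage and 3 of 5 endothelial markers. The macrophage markers summed to at most 20.2 CPM. The endothelial markers summed to 6.81 to 17.3 CPM in DMSO and 21.7 to 25.8 in ISO without Dox, and to 7.22 to 13 and 17.4 to 22.8 CPM with Dox, and Tek, the 1 that was tested, rose with ISO by 1.25 and 1.14 (log2). The 7 adipocyte markers in the table summed to 2880 to 3500 CPM in DMSO, 3890 to 4100 in ISO and 4110 to 4600 in SR-3420 without Dox, and with Dox to 3450 to 3950, 5990 to 6370 and 5080 to 6220 CPM. Of 8 brown adipocyte markers only Dio2 stayed at 3 counts or fewer in every library, and the 8 summed to 129 to 204 CPM in DMSO, 350 to 494 in ISO and 152 to 212 in SR-3420 without Dox, and to 188 to 233, 628 to 1280 and 223 to 403 CPM with Dox. The 8 preadipocyte or fibroblast markers summed to 692 to 933 CPM in DMSO and 528 to 651 in ISO without Dox, and to 765 to 1170 and 504 to 778 CPM with Dox. Single adipocyte markers moved apart with ISO without Dox, where 2 of 7 rose, 1 fell and the median log2 fold change was -0.05, while with Dox all 7 rose. The preadipocyte sums in ISO lay below those in DMSO without Dox and overlapped them with Dox, and the adipocyte sums were above DMSO with SR-3420 too. The part of these markers in the results below was not tested; in bulk RNA, a change in the share of cells of one kind and a change in RNA per cell cannot be told apart.

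The counted lengths match mainly introns: for 58 of the 89 genes found in the mm9 annotation, the counted length was within 10 percent of the summed intron length, and it ranged from 273 to 105160 bases over the 92 genes. The study's methods name a gene-level count option of iRNA-seq and do not speak of introns, so that the counted region is read here from these lengths alone, and how far the counts hold unspliced or spliced RNA is not settled. Levels of different genes are set against each other as CPM per kilobase of counted length; where a gene is said to be highest or second in CPM within its complex, that order grows with counted length and is not one of level. A total of 84 genes had 10 or more counts in at least 3 libraries and were tested with the other genes of the table, 10390 in all. The 8 that were not tested are Cox4i2, Cox6a2, Cox6b2, Cox7b2, Cox8b and Cox8c, which encode isoforms of complex IV subunits, among them Cox8b, known from muscle and brown fat, the complex I assembly factor Ndufaf3 and Ndufa4l2. Ndufaf3 reached 14 counts in its highest library, Cox6b2 8 counts and Cox8b 5 counts. Cox8c had 0 counts in all 18 libraries, where a count of 0 allows up to 1.44 to 4.08 CPM depending on the library, for counting error alone.

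Per kilobase, the highest levels in DMSO without Dox were those of Cyc1, the cytochrome c1 subunit of complex III, with 220 ± 34 CPM per kb, and of Atp5b, the catalytic β subunit of ATP synthase, with 174 ± 11.4 CPM per kb (SD, n = 3). Cox5b followed with 153 ± 23.2, Uqcrh with 111 ± 16 and Cox8a with 96.7 ± 7.37 CPM per kb. The SD ranges of Atp5b and Cox5b overlapped, as did those of Uqcrh and Cox8a, so the order within these pairs is not settled. Uqcrfs1, the Rieske iron-sulfur protein of complex III, had 0.831 ± 0.605 CPM per kb, far below Cyc1 of the same complex. The counted regions behind these levels differ in kind: the counted length was 0.5 times the summed intron length for Cyc1 and 1.46 times for Atp5b, so this order is one of counted regions and may not be one of transcripts.

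Isoform pairs are given as the mean and SD over all 18 libraries, a spread that includes the treatments. The general isoform Cox4i1 stood at 66.1 ± 13.2 CPM per kb while Cox4i2 never had more than 1 count in a library. Cox6a1 had 33.1 ± 11.3 and the muscle isoform Cox6a2 9.69 ± 6.68 CPM per kb, the latter from at most 7 counts. Cox6b1 stood at 22.3 ± 5.89 against 3.34 ± 2.83 CPM per kb for Cox6b2, and Cox8a at 121 ± 25.6 against 1.07 ± 1.25 CPM per kb for Cox8b. Cox7a1, the heart and muscle isoform that is also a known brown fat gene, had 41.7 ± 14.3 CPM per kb and its general counterpart Cox7a2 50.6 ± 9.69. In DMSO without Dox alone Cox7a1 had 27.3 ± 8.54 and Cox7a2 45.6 ± 1.98 CPM per kb (SD, n = 3). Of the 3 genes for subunit c of ATP synthase, which encode the same mature protein, Atp5g3 had 86.0 ± 16.8, Atp5g2 31.4 ± 3.08 and Atp5g1 14.6 ± 5.02 CPM per kb. The counted length of Atp5g3 was 3.08 times its summed intron length, against 1 for Atp5g2 and 1.05 for Atp5g1, so the 3 levels do not rest on like regions.

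The summed level of each complex was higher with ISO than with DMSO in both states of the cells, and on TMM-scaled CPM the groups did not overlap except for complex III without Dox. Scaled to library totals only, the groups without Dox overlapped in all 5 complexes, at log2 ratios of 0.03 to 0.37, while those with Dox did not (0.18 to 0.49), and cytochrome c did not overlap in either state. Values in the rest of this paragraph are on TMM-scaled CPM. For complex I the 3 DMSO libraries without Dox had 3250, 2770 and 3120 CPM and the ISO libraries 4020, 3300 and 4280 CPM, and with Dox the sums were 3250, 2860 and 3370 CPM in DMSO against 4720, 3910 and 4940 CPM in ISO. Replicate 2 was the lowest of its group in each of these 4 groups, yet the lowest ISO library lay above the highest DMSO library. Complex IV went from 1570 ± 167 to 2280 ± 194 CPM without Dox and from 1720 ± 98.6 to 2660 ± 180 CPM with Dox (SD, n = 3). In ratios of group means, complex I was 1.27-fold higher with ISO without Dox and 1.43-fold higher with Dox, complex II 1.31 and 1.55-fold, complex IV 1.45 and 1.55-fold, and complex V 1.37 and 1.42-fold. Complex III reached 1.14-fold without Dox, where the groups overlapped, and 1.25-fold with Dox, and Uqcrh alone held 56.3% of its sum in DMSO without Dox. Without Uqcrh, the log2 ratio of the complex III sum with Dox was 0.59, against 0.32 with it, and without Dox it was 0.39 against 0.19, with no overlap between 600 to 687 CPM in DMSO and 722 to 924 CPM in ISO. Cytochrome c was 3.73-fold higher without Dox and 4.93-fold higher with Dox.

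**Figure D1:**
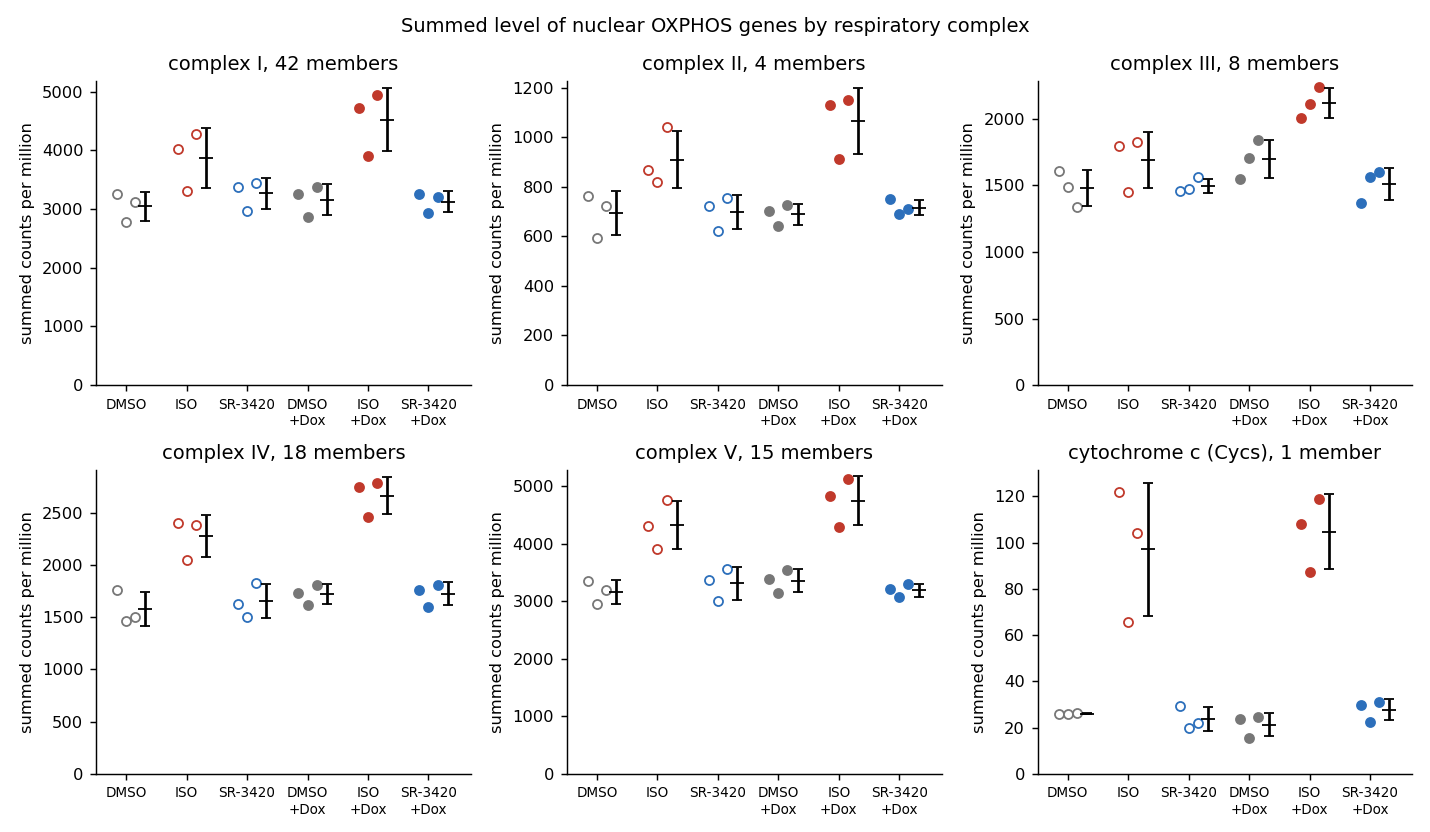
Summed CPM (y axis, from 0) of the genes of each respiratory complex in each of the 18 libraries, by group (x axis; open circles without Dox, filled circles with Dox), with the mean and SD of 3 replicates as bars. Complex I includes its 7 assembly factors. On this TMM-scaled CPM, ISO libraries lie above their DMSO libraries in every panel except complex III without Dox; scaled to library totals only, the groups without Dox overlap in all 5 complexes. The SR-3420 libraries overlap DMSO libraries in all panels.

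Of the 84 genes tested, 42 were higher with ISO than with DMSO without Dox and 0 were lower, against 14.3% higher and 13.2% lower among all 10390 genes tested (edgeR, adjusted p of 0.05 or less). With Dox, 55 of 84 were higher and 0 lower, against 16.5% and 15.4% of all genes. At an unadjusted p under 0.05, 52 and 64 of the 84 passed in the 2 comparisons (38.3% and 42% of all genes), and DESeq2 called 35 and 54 higher and 0 lower. The median log2 fold change of the 84 genes was 0.47 without Dox and 0.57 with Dox, where the median of all genes was -0.01 in both, and 78 and 80 of the 84 values were above 0, against 49.3% and 49.2% of all genes. All 3 ISO libraries lay above all 3 DMSO libraries for 45 of the 84 genes without Dox and 61 with Dox, against 19.8% and 21.5% of all genes. The reverse held for 1 of the 84 genes in each state, against 19.6% and 20.8% of all genes. Few changes were large, since 9 genes without Dox and 7 with Dox passed at a log2 value of 1 or more, against 5.77% and 6.34% of all genes (5.03% and 6.7% passed at -1 or less, and 0 of the 84).

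Both counts depended on the scaling, and the count without Dox also on single libraries. Scaling to library totals alone, without TMM, moved the median of all genes to -0.19 and left 19 of the 84 passing, all higher, while the gap between the OXPHOS median and the median of all genes was 0.49, against 0.48 with TMM. With Dox the same scaling moved the median of all genes to -0.16 and left 35 passing, with a gap of 0.58 under both scalings. Among all genes it changed the share of higher calls from 52% to 30.3% without Dox and from 51.6% to 34.7% with Dox. Leaving out ISO without Dox replicate 3 gave 24 genes and leaving out DMSO without Dox replicate 2 gave 27, all higher.

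**Figure D2:**
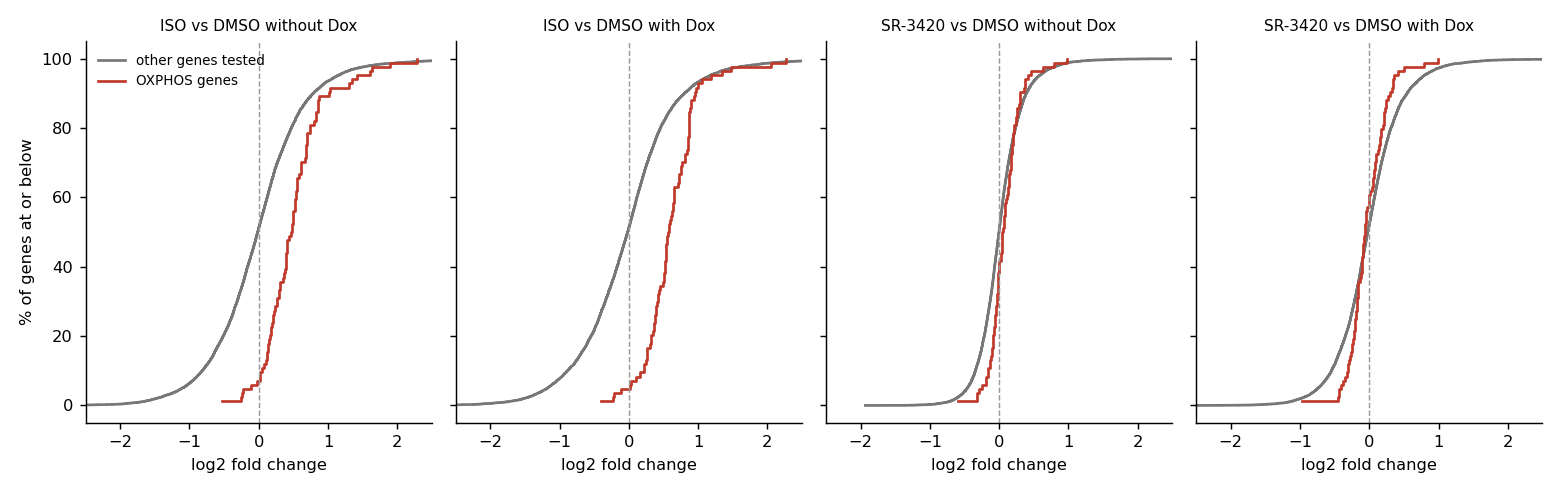
Cumulative share of genes (y axis, %) at or below each log2 fold change (x axis) for the 84 tested OXPHOS genes (red) and the other genes tested (grey) in 4 comparisons; a few other genes lie beyond the x axis. The red curve is shifted to the right in both ISO comparisons, with medians of 0.47 and 0.57, and lies near the grey curve in both SR-3420 comparisons.

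Cytochrome c had the smallest p of the 84 genes in both comparisons. Cycs encodes the small carrier that shuttles electrons from complex III to complex IV and lies at chr6:50512562-50516473 (mm9, minus strand). It had 25.7, 25.9 and 26.4 CPM in DMSO without Dox and 122, 65.5 and 104 CPM in ISO without Dox, and 23.5, 15.5 and 24.7 against 108, 87.4 and 119 CPM with Dox. All ISO libraries lay above all DMSO libraries. The log2 fold changes were 1.89 (SE 0.23, adjusted p = 2.84e-07) without Dox and 2.27 (SE 0.22, adjusted p = 3.30e-09) with Dox. With SR-3420 the gene stood at 29.5, 19.7 and 22.0 CPM without Dox and 29.6, 22.6 and 30.9 CPM with Dox, and these groups overlapped those in DMSO. Its counted length of 853 bases is longer than the 572 intron bases of the annotation, so some exon reads may be included, and processed pseudogenes of cytochrome c are known in the mouse genome.

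The promoters of Cycs and of 3 other genes that rose with ISO in both states (Ndufaf4, Cox6a1 and Sdhb) are printed with that of Uqcrh, the complex III gene with the highest CPM, which did not pass in either. These genes were picked for display and do not stand for the set. No complex V gene and no gene that passed with SR-3420 is among them. Each printed gene that rose holds the NRF1 core, against 9 of the 31 matched genes that rose in both states and 2 of the 18 that rose in neither. The sequences are the 250 bases before the transcript start in RefSeq on GRCm38.p6, a later build than that of the counts. The windows are chr6:50566570-50566819 (minus strand) for Cycs, chr4:24897833-24898082 (plus) for Ndufaf4, chr5:115348959-115349208 (minus) for Cox6a1, chr4:140961021-140961270 (plus) for Sdhb and chr4:116075071-116075320 (minus) for Uqcrh. Capitals mark matches, on either strand, to the cAMP response element TGACGTCA, the NRF1 core GCATGCGC and the ETS core CCGGAAG.
Cycs: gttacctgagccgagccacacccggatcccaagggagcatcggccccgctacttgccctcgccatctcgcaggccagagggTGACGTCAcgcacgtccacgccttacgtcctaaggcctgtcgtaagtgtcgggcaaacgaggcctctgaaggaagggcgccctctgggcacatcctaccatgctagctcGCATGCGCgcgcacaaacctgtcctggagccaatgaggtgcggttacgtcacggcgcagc
Ndufaf4: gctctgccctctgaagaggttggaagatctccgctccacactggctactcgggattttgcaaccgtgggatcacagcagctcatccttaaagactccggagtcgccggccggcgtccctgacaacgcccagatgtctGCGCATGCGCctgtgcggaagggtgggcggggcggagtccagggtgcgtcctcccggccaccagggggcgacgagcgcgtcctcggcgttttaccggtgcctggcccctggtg
Cox6a1: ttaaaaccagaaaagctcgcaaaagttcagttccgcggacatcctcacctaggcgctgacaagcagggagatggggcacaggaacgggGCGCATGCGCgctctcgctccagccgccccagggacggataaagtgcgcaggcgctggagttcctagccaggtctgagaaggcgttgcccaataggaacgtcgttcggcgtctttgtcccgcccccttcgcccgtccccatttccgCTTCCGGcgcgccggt
Sdhb: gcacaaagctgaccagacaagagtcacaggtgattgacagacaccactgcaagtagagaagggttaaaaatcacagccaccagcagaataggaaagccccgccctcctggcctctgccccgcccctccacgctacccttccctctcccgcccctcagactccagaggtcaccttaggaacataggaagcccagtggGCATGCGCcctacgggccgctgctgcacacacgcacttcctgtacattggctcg
Uqcrh: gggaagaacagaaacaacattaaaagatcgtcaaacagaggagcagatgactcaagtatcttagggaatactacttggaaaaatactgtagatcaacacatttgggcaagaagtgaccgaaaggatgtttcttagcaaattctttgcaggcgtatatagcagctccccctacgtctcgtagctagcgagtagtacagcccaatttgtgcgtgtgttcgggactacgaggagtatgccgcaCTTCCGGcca
In Cycs the full cAMP response element begins 169 bases and the NRF1 core 60 bases before the start. In Ndufaf4 and Cox6a1 the palindrome GCGCATGCGC holds the NRF1 core on both strands, so its 2 matches overlap. Sdhb has an NRF1 core that begins 54 bases before the start, and Uqcrh an ETS core that begins 10 bases before it and no NRF1 core or full cAMP response element in this window.

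Over the whole set, 73 of the 92 genes matched a RefSeq promoter of 250 bases before to 50 after the start, and 5 motifs were searched on both strands. The NRF1 core was in 13 of the 73 (17.8%), against 6.7% of the 7974 tested genes that matched and 2.71% of all 32851 windows. Of the 78 windows of these genes, 16.7% held the core. The last share counts windows and the others count genes, for this motif and for those below. The full cAMP response element was in 5 genes (6.85%, against 3.62% and 1.79%), namely Cycs, Ndufa10, Ndufa11, Ndufb2 and Uqcrfs1. The YY1 core AAGATGGCG was in 7 (9.59%, against 3.94% and 1.40%), the ETS core in 17 (23.3%, against 21.2% and 8.86%) and the oestrogen-related receptor half-site CAAGGTCA in 3 (4.11%, against 1.22% and 1.56%). Among the 31 matched genes that rose with ISO in both states, 9 had the NRF1 core, 11 the ETS core, 4 the full cAMP response element, 0 the YY1 core and 3 the oestrogen-related receptor half-site. Among the 20 that rose in 1 of the 2 comparisons these numbers were 2, 2, 0, 5 and 0, and among the 18 that rose in neither they were 2, 4, 1, 2 and 0. These are counts of letter matches, given as a description with no test.

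Complex I had the largest number of members and, of the 5 complexes, the smallest share that rose without Dox, 14 of 41 tested; with Dox 23 of 41 rose. Of its 7 core subunits, 2 rose without Dox and 3 with Dox, with median log2 fold changes of 0.34 and 0.38. Of its 28 accessory subunits, 10 rose without Dox and 17 with Dox. Ndufa10, an accessory subunit, had 104, 95.3 and 107 CPM in DMSO and 153, 129 and 167 in ISO without Dox, and 96.6, 105 and 85.3 against 204, 149 and 215 CPM with Dox. The ISO libraries lay above all DMSO libraries in both states, and the log2 fold change was 0.55 (SE 0.15, adjusted p = 0.00756) without Dox and 0.98 (SE 0.15, adjusted p = 7.00e-06) with Dox. Ndufab1, the mitochondrial acyl carrier protein, rose by 0.74 and 0.88 (log2). Ndufv1, the flavoprotein that binds NADH and the complex I gene with the highest CPM, did not pass in either, with log2 fold changes of 0.36 (SE 0.17, adjusted p = 0.122) and 0.32 (SE 0.17, adjusted p = 0.158). Ndufa6, second in CPM, had a log2 fold change of 0.24 without Dox, which did not pass, and rose by 0.49 with Dox.

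Among the 6 tested complex I assembly factors, 2 rose without Dox and 3 with Dox. Ndufaf4 had 24.8, 10.9 and 20.3 CPM in DMSO and 68.4, 37.7 and 45 CPM in ISO without Dox, and 25, 22.7 and 10.1 against 72.4, 49.6 and 49.4 CPM with Dox, without overlap in either state. Its log2 fold changes were 1.35 (SE 0.30) and 1.48 (SE 0.27). Ndufaf5 rose by 1.42 (SE 0.27) and 1.35 (SE 0.26), and Ndufaf1 rose with Dox by 0.81 (SE 0.23). Ndufaf2, Ndufaf6 and Ndufaf7 did not pass in either comparison. Ndufaf4, Ndufaf5 and Ndufaf1 were picked out after their values were seen.

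All 4 genes of complex II, which is also an enzyme of the citric acid cycle, had ISO values above 0 on the log2 scale. Sdhb, the iron-sulfur subunit, had 203, 161 and 189 CPM in DMSO and 279, 256 and 347 in ISO without Dox, and 185, 196 and 214 against 358, 322 and 402 CPM with Dox. The groups did not overlap, and the log2 fold changes were 0.67 (SE 0.14, adjusted p = 7.62e-04) and 0.87 (SE 0.14, adjusted p = 1.70e-05). Sdhd, a membrane anchor, rose by 0.70 (SE 0.19) and 0.95 (SE 0.18). Sdha, the flavoprotein that oxidises succinate, had 0.20 (SE 0.13) without Dox, which did not pass, and rose by 0.42 (SE 0.13) with Dox, and Sdhc, the other anchor, passed in neither (0.02 and 0.42).

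In complex III, 3 of 8 genes rose without Dox and 6 of 8 with Dox. Uqcrh, the hinge protein, had 924, 889 and 699 CPM in DMSO and 920, 726 and 907 in ISO without Dox, and 864, 1050 and 1130 against 956, 1220 and 1090 CPM with Dox. The groups overlapped in both states, with log2 fold changes of 0.02 (SE 0.16) and 0.10 (SE 0.16). Uqcrc1, a core protein of the complex and second in CPM, had 0.30 without Dox, which did not pass, and rose by 0.66 (SE 0.15) with Dox. Cyc1, which passes electrons to cytochrome c, rose by 0.54 (SE 0.15) and 0.60 (SE 0.14). Uqcrfs1, named after its values were seen, had log2 fold changes of 2.28 (SE 0.54, adjusted p = 0.00214) and 2.04 (SE 0.50, adjusted p = 0.00232), at 5.31, 1.36 and 2.03 CPM in DMSO against 25, 11.9 and 11.3 CPM in ISO without Dox. It had 1 to 24 counts per library, so few reads stand behind this value. It reached 10 counts in 5 libraries, all with ISO, and so entered the test only through the groups where it was high. Its calls are among those counted above but cannot be read as a test.

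Of the 5 complexes, complex IV had the largest share that rose, 10 of 12 tested in either state. Cox6a1 had 56.6, 57.2 and 70.2 CPM in DMSO and 137, 101 and 139 in ISO without Dox, and 76.9, 62.9 and 81.9 against 143, 116 and 148 CPM with Dox, without overlap. The log2 fold changes were 1.03 (SE 0.17, adjusted p = 5.00e-05) and 0.87 (SE 0.16, adjusted p = 1.42e-04). Cox6b1 rose by 0.85 (SE 0.14) and 0.71 (SE 0.14), Cox4i1, the highest of the complex in CPM, by 0.53 (SE 0.12) and 0.55 (SE 0.12), and Cox5b by 0.39 (SE 0.15) and 0.39 (SE 0.14). Ndufa4 rose by 0.40 (SE 0.14) and 0.65 (SE 0.14). Cox8a had 0.42 and 0.33, of which the first passed. Of the Cox7a isoforms, Cox7a1 rose without Dox by 0.86 (SE 0.28) and had 0.54 (SE 0.25, adjusted p = 0.0963) with Dox, while Cox7a2 had 0.21 (SE 0.13, adjusted p = 0.222) without Dox and rose by 0.57 (SE 0.12) with Dox. Cox7a2l, a relative that promotes the assembly of supercomplexes and is counted in no complex, rose by 1.02 (SE 0.19) and 0.76 (SE 0.17).

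In complex V, 11 of 15 genes rose without Dox and 10 of 15 with Dox. Atp5o, the oligomycin-sensitivity subunit of the stalk, had 140, 133 and 152 CPM in DMSO and 271, 205 and 281 in ISO without Dox, and 162, 132 and 146 against 272, 233 and 304 CPM with Dox. The groups did not overlap in either state, and the log2 fold changes were 0.83 (SE 0.15, adjusted p = 1.19e-04) and 0.87 (SE 0.15, adjusted p = 3.49e-05). Atp5h, another stalk subunit, rose by 0.55 (SE 0.14) and 0.84 (SE 0.14). The catalytic pair differed in their calls: Atp5a1 rose by 0.47 (SE 0.14) and 0.54 (SE 0.14), and Atp5b rose by 0.40 (SE 0.15, adjusted p = 0.0489) without Dox and had 0.36 (SE 0.15, adjusted p = 0.0650) with Dox. Among the genes for subunit c, Atp5g3 rose in both (0.61 and 0.51), Atp5g1 rose without Dox by 0.85 (SE 0.23) and had 0.53 (SE 0.22, adjusted p = 0.0581) with Dox, and Atp5g2 passed in neither (0.13 and 0.22). Atp5j, which overlaps Gabpa in the genome, had 0.16 (SE 0.12) and 0.03 (SE 0.12).

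**Figure D3:**
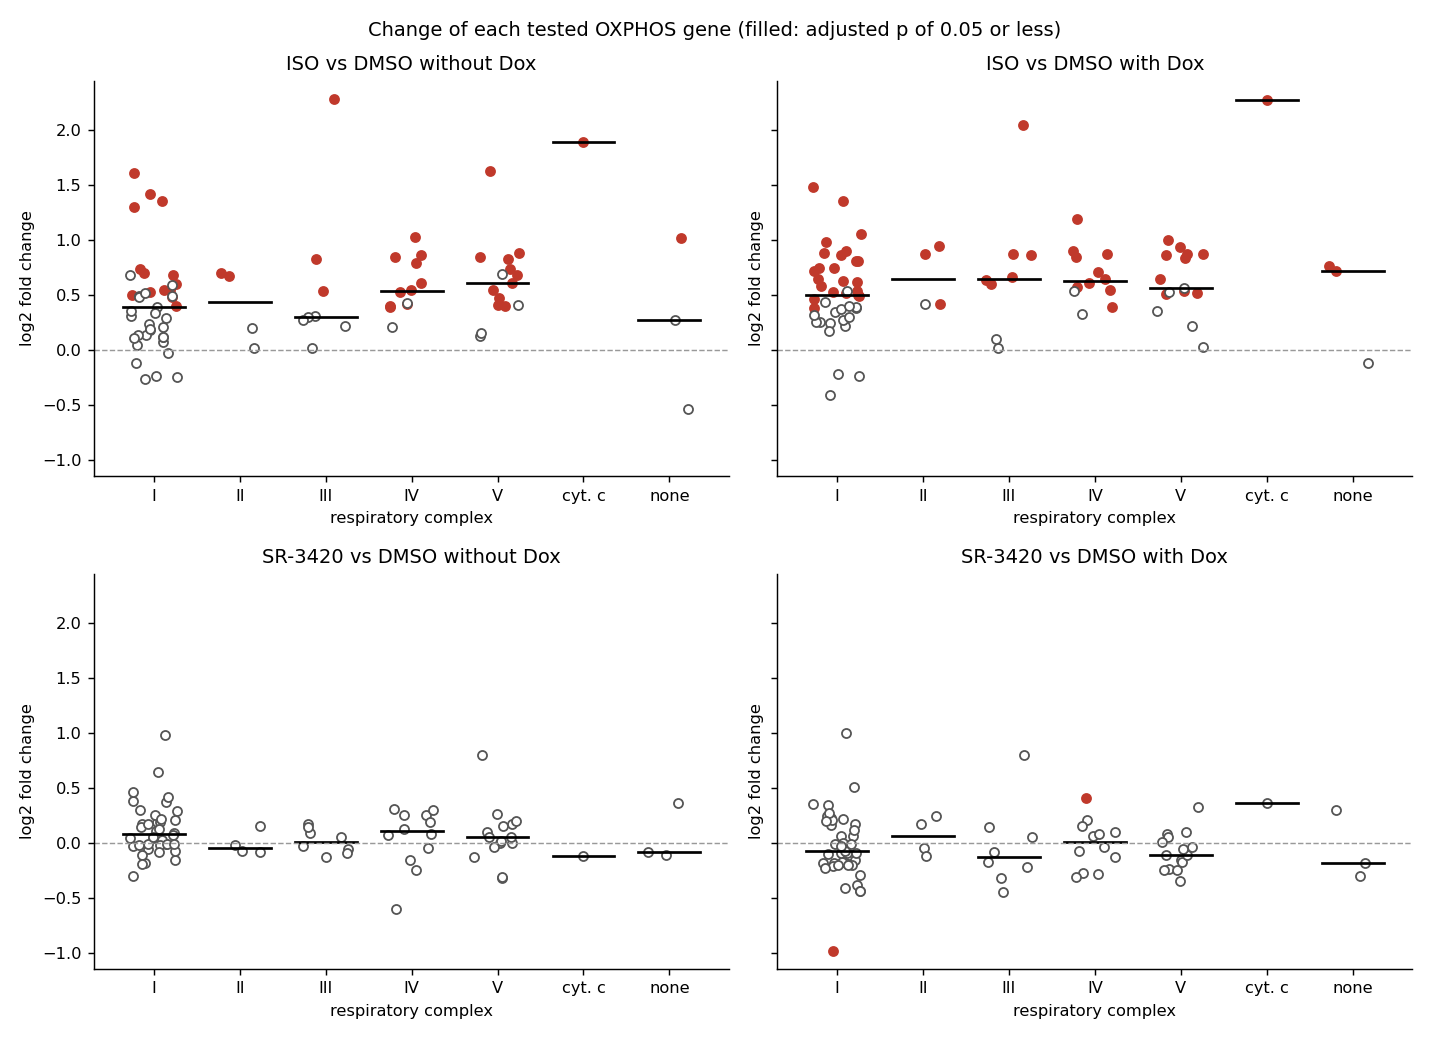
Log2 fold change (y axis) of each of the 84 tested genes by respiratory complex (x axis; none, genes placed in no complex) in 4 comparisons; each point is a gene, horizontal lines are medians and red points passed at an adjusted p of 0.05 or less. In the ISO panels 42 and 55 points are red, all above 0, and in the SR-3420 panels 0 and 2 are red.

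The 2 ISO comparisons use different DMSO libraries, and 36 genes rose in both, which is 85.7% of the 42 and 65.5% of the 55; among all genes tested, 957 rose in both, 64.5% of 1484 and 55.8% of 1714. Another 6 genes passed without Dox and not with Dox, among them Cox7a1, Cox8a, Atp5b and Atp5g1, 19 passed with Dox and not without, and 23 passed in neither. Across the 84 genes the log2 fold changes of the 2 comparisons correlated with Pearson's r = 0.755 (Spearman's rho = 0.664), and across all 10390 genes with r = 0.705 (rho = 0.665); genes are not independent replicates and share libraries and depth.

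**Figure D4:**
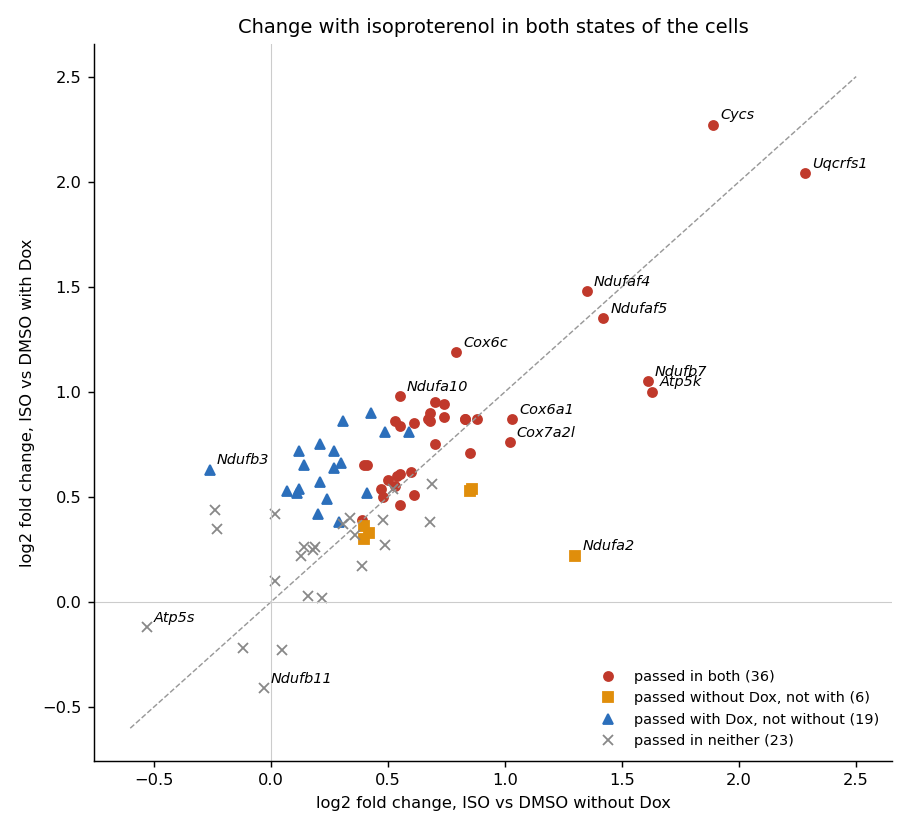
Log2 fold change with ISO of the 84 tested genes without Dox (x axis) and with Dox (y axis); symbols show in which comparison a gene passed, and the dashed line marks equal change. Cycs and Uqcrfs1 lie farthest out in both, and all 61 genes that passed in either comparison did so with a positive value. Uqcrfs1 met the count filter only through ISO libraries, so its place in the plot is not a test.

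Whether the response to ISO differed between the states was tested as an interaction. For 0 of the 84 genes did it pass, against 1.61% higher and 0.549% lower among all genes (edgeR; DESeq2 also 0), with 8 of 84 at an unadjusted p under 0.05 (background 13.9%). Of the 84 differences, 57 were above 0, with a median of 0.08, against 5124 of 10390 and -0.01 for all genes. Scaled to totals without the 10 genes with most counts, 41 of the 84 were above 0, with medians of 0 and -0.09. The smallest p was that of Ndufb3, an accessory subunit of complex I. It had 97.3, 47.7 and 67.1 CPM in DMSO and 64.1, 57.5 and 60 in ISO without Dox, and 75.9, 59.8 and 39.3 against 95.9, 93.7 and 93.1 CPM with Dox. The ISO values lay within the DMSO range without Dox and above it with Dox, and the difference of the log2 fold changes, with Dox minus without, was 0.89 (SE 0.29, adjusted p = 0.0986). It passed in the fit that left out replicate 2 of DMSO without Dox (1.08, adjusted p = 0.0344) and in the fit that left out replicate 1 of the DMSO libraries with Dox (1.17, adjusted p = 0.0439). The next were Ndufs7, Ndufa7, Ndufb4 and Ndufa5, all of complex I, with differences of 0.54, 0.57, 0.60 and 0.51 (adjusted p = 0.209 to 0.256). With the replicate number as a further factor 3 genes passed, namely Ndufb3 (adjusted p = 0.0197), Ndufs7 (adjusted p = 0.0388) and Ndufa7 (adjusted p = 0.0494), all with the larger value with Dox.

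SR-3420 without Dox changed 0 of the 84 genes, against 0.693% higher and 0.0674% lower among all genes (edgeR; DESeq2 also 0; 4 of 84 at an unadjusted p under 0.05, background 8.69%). The median log2 fold change was 0.05, with values from -0.60 to 0.98 and a median SE of 0.17. The smallest p values were those of Ndufa3 (0.64, SE 0.22, adjusted p = 0.301), Cox5a (-0.60, SE 0.21, adjusted p = 0.319) and Ndufab1 (0.38, SE 0.17, adjusted p = 0.524).

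With Dox, where SR-3420 changed 6.33% of all genes upward and 3.45% downward, 1 OXPHOS gene rose and 1 fell, and the median log2 fold change was -0.07, with 9 of 84 at an unadjusted p under 0.05 (background 22.7%). Scaling to library totals alone moved the median of all genes to -0.21 and the share of higher calls among all genes from 64.8% to 31.7%; Ndufb11 and Ndufa13 then passed, both lower, and Cox7a2 did not. Ndufb11, an accessory subunit of complex I at chrX:20192452-20194690 (mm9, minus strand), had 38.4, 44.4 and 52.7 CPM in DMSO with Dox and 21.7, 23.6 and 21.9 CPM in SR-3420 with Dox. All 3 SR-3420 libraries lay below the DMSO libraries, and the log2 fold change was -0.98 (SE 0.23, adjusted p = 0.00587). In DMSO without Dox the gene had 30.1, 34.0 and 28.5 CPM, between these groups. It overlaps Rbm10, and with the strand of counting not stated the reads of the 2 genes cannot be told apart in the shared stretch; Rbm10 itself had a log2 fold change of 0.02 in this comparison. Cox7a2 had 159, 173 and 175 CPM in DMSO with Dox and 210, 218 and 242 CPM in SR-3420 with Dox, a log2 fold change of 0.41 (SE 0.12, adjusted p = 0.0336). Without the library that stood apart, SR-3420 with Dox replicate 1, the values were -0.95 (adjusted p = 0.0321) for Ndufb11 and 0.46 (adjusted p = 0.0499) for Cox7a2. Cox7a2 passed in none of the other 5 fits that left out a library, and Ndufb11 passed in all 6. Ndufab1 followed with 0.51 (SE 0.17, adjusted p = 0.0566), and its call depended on the settings. It passed with the replicate block (adjusted p = 0.00136), with no filter on low counts (0.0258), with 10 or more counts required in every library (0.0494), with RLE size factors (0.05) and on leaving out, in turn, replicate 1 of DMSO with Dox (0.0465) and replicate 2 of SR-3420 with Dox (0.0379). On library totals only its adjusted p was 0.28.

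The interaction of SR-3420 with Dox passed for 0 of the 84 genes (0.491% higher and 0.221% lower among all genes; edgeR, and DESeq2 also 0; 6 of 84 at an unadjusted p under 0.05, background 11.9%). Cox7a2 had 130, 150 and 166 CPM in SR-3420 against 184, 176 and 169 in DMSO without Dox, below the DMSO libraries, and its difference of log2 fold changes was 0.66 (SE 0.18, adjusted p = 0.0721; 0.00738 with the replicate number as a further factor). Ndufb11 had a difference of -0.96 (SE 0.33, adjusted p = 0.188).

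**Figure D5:**
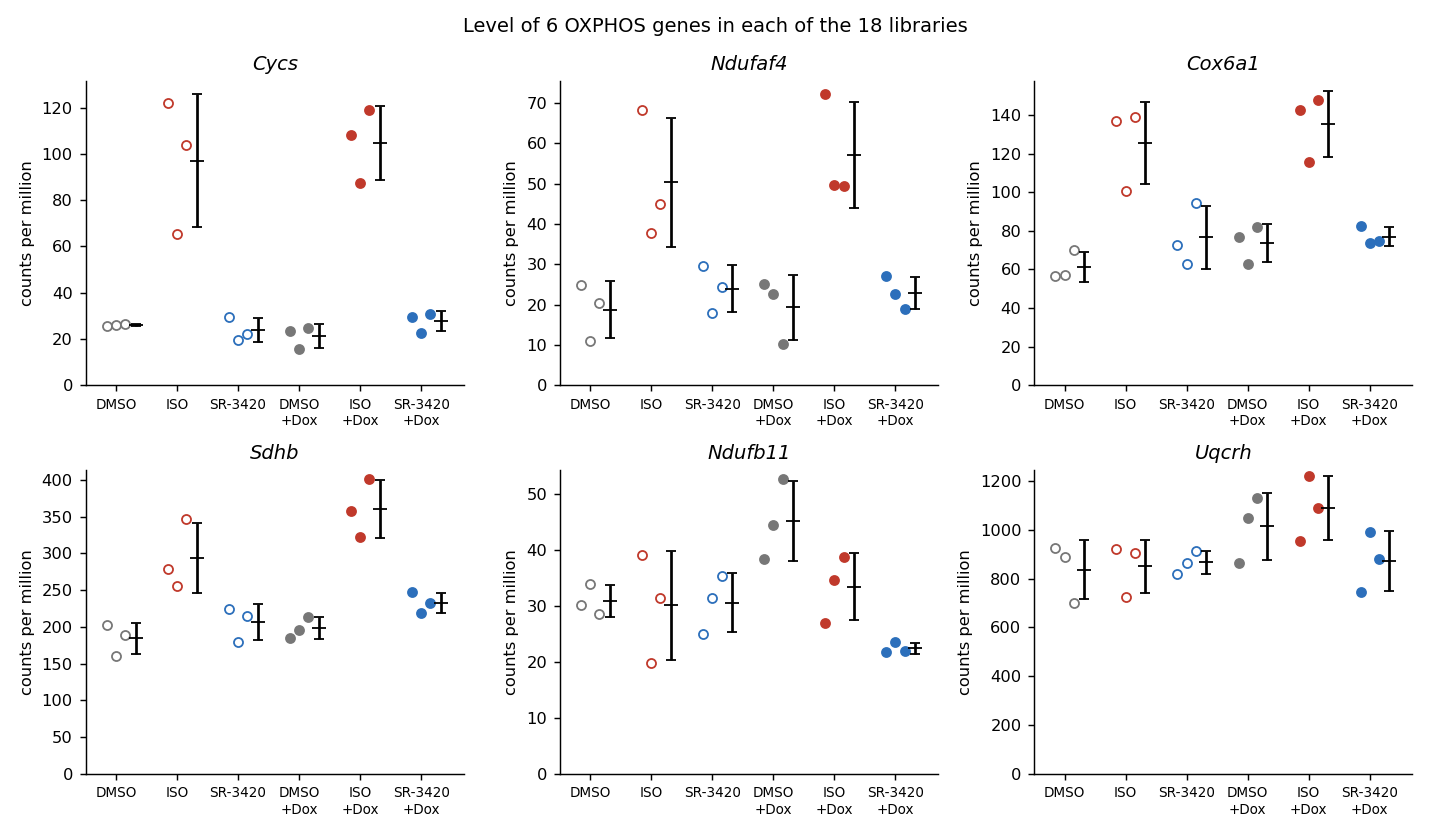
CPM (y axis, from 0) of 6 genes in each of the 18 libraries by group (x axis; open circles without Dox, filled circles with Dox), with mean and SD of 3 replicates as bars. Cycs, Ndufaf4, Cox6a1 and Sdhb are higher in the ISO libraries of both states, all Ndufb11 values in SR-3420 with Dox lie below those in DMSO with Dox, and the groups of Uqcrh overlap.

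A direct comparison of ISO with SR-3420 was added after the single comparisons had been seen, since an effect past the threshold in one and not in the other is not a difference. Without Dox, 35 of 84 genes were higher with ISO than with SR-3420 and 0 were lower (14% and 13.8% of all genes), and with Dox 57 of 84 were higher and 0 lower (10.9% and 8.62%). These comparisons share the ISO libraries with those against DMSO. Without Dox the count was 16 higher and 1 lower with library totals alone, and 22 higher and 1 lower without ISO replicate 3. With Dox library totals alone gave 53. With Dox 4 of 4 genes of complex II passed, 10 of 12 of complex IV, 12 of 15 of complex V, 5 of 8 of complex III and 24 of 41 of complex I. Cycs had log2 differences of 2.02 (SE 0.21) without Dox and 1.91 (SE 0.22) with Dox. Ndufa4 was higher by 0.96 (SE 0.15) with Dox. The doses were 10 nM ISO and 20 µM SR-3420, and the compounds act on different targets.

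Dox in DMSO changed 0 of the 84 genes, against 1.07% higher and 0.0866% lower among all genes (edgeR; DESeq2 also 0; 6 of 84 at an unadjusted p under 0.05, background 9.7%). The median log2 fold change was 0.06. Cox8a had 199, 185 and 171 CPM without and 232, 247 and 264 CPM with Dox, without overlap, at a log2 fold change of 0.41 (SE 0.14, adjusted p = 0.259). Next came Ndufa3 (0.59, adjusted p = 0.356), Cox7a2l (0.47, adjusted p = 0.384) and Ndufa2 (0.91, adjusted p = 0.416). Summed levels of complexes I to V overlapped between the 2 DMSO groups, with ratios from 0.993 to 1.15, while the Cycs libraries with Dox all lay below those without, at a ratio of 0.817 and with no call.

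Lists of genes that work with these complexes were read in the same way, against the shares of all genes given above, which with ISO were 14.3% higher and 13.2% lower without Dox and 16.5% and 15.4% with Dox. Of the 18 genes of the citric acid cycle and pyruvate dehydrogenase (succinate dehydrogenase not included), 10 rose with ISO without Dox and 15 with Dox, and 0 fell, with median log2 fold changes of 0.49 and 0.73. Among them Dlst rose by 1.05 (SE 0.14) and 1.03 (SE 0.13), and Idh3a by 0.94 (SE 0.18) and 1.52 (SE 0.18). Of 31 tested assembly factors outside the naming rule, 10 rose without Dox and 8 with Dox, and 0 fell; Cox10, which acts in making the heme of complex IV, rose by 1.38 (SE 0.24) and 1.27 (SE 0.22), and Higd1a by 1.22 (SE 0.22) and 1.70 (SE 0.20). With SR-3420 without Dox 0 genes of either list passed, and with Dox 3 genes of the first list rose, and 2 of the second rose and 1 fell, the latter close to the shares of 6.33% and 3.45% among all genes.

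Of 18 tested regulators of mitochondrial biogenesis, 5 rose and 4 fell with ISO without Dox (14.3% and 13.2% of all genes), and 6 rose and 3 fell with Dox (16.5% and 15.4%), the 3 that fell with Dox being near the share among all genes. Ppargc1a, the coactivator PGC-1α, went from 32.4 ± 11.9 to 155 ± 12.8 CPM without Dox and from 43.5 ± 6.33 to 425 ± 171 CPM with Dox, log2 fold changes of 2.20 (SE 0.32) and 3.30 (SE 0.29). Pprc1, a relative of PGC-1α, rose by 1.20 and 0.76, and Tfb1m, a mitochondrial rRNA methyltransferase, fell by 1.11 and by 0.54 (log2). With SR-3420 with Dox 3 regulators rose, namely Ppargc1b by 1.97 (SE 0.27), Nrf1 by 0.68 (SE 0.14) and Ppargc1a by 1.13 (SE 0.31), and 1 fell. Of 27 tested carriers, ubiquinone synthesis genes and uncoupling proteins, 7 rose and 2 fell with ISO without Dox, and 13 rose and 3 fell with Dox, against the same shares of all genes. Ucp1 stood at 0.295 ± 0.511 CPM in DMSO and 70.5 ± 41.3 in ISO without Dox, and at 0.878 ± 0.347 against 243 ± 93.7 CPM with Dox. Coq2, which attaches the side chain of ubiquinone, fell by 0.73 and by 0.78 (log2), while Pdss1, which helps build that chain, rose by 1.40 and 1.38.

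Members counted over fewer than 5000 bases and over more were read apart, a split added after the data were seen. Without Dox 23 of 36 shorter and 19 of 48 longer genes rose with ISO, against 16.9% and 13.8% of all genes of those lengths, and with Dox 23 of 36 and 32 of 48 rose, against 12% and 17.3%. The 79 tested genes that overlap no other gene of the table gave 40 and 53 higher and 0 lower in the 2 ISO comparisons.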

How the data were processed

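The study measured RNA of 18 libraries of cultured mouse brown adipocytes. Reads had been mapped by the authors to mm9 with STAR 2.4.2a and counted with HOMER, which kept 1 read per position and read length and so limits counts over short regions, and iRNA-seq, per the methods and labels; the deposited file holds raw counts per gene, 1 column per library, not normalized. The counted length of most members is close to their intron length, although the methods name a gene-level count option, and the strand of counting is not given in the sources used here. Floors cover counting error only. Groups and replicate numbers came from the labels; the methods describe 3 independent experiments. Columns with no sample numbered 0.

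Genes with 10 or more counts in at least 3 libraries were tested in edgeR 4.0.16 (R 4.3.3; TMM, quasi-likelihood F test, two-sided, 1 mean per group over all 18 libraries), with Benjamini-Hochberg adjustment over the 10390 genes tested. A gene passed at an adjusted p of 0.05 or less, with no fold limit. The SE is the size of the log2 change divided by the square root of F. CPM are counts per 1000000 of the TMM-scaled library size. Sums per complex were compared as ratios with no test. The 7 comparisons were ISO and SR-3420 against DMSO without and with Dox, Dox in DMSO, and both interactions. Scripts were tested on simulated counts. Alternatives were RLE scaling, library totals, filters, DESeq2 1.42.0, a replicate block, single groups and leaving out each library.

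The members, roles and lists were chosen with earlier results of these data known. Genes named were the 5 smallest p values per comparison, the 2 with the highest CPM of each complex, fixed isoform sets, Abhd5, and up to 3 genes per list and comparison; others are said to be chosen after their values were seen. Values of some single genes are not reported here.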

Additional observations from a re-analysis of the deposited data

How the results depend on the processing

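Without Dox, 42 genes rose with ISO and with Dox 55. Library totals alone gave 19 and 35, and the further limit of 1 on the log2 scale left 9 and 7. Totals without the 10 genes with most counts, an alternative chosen after seeing the data, gave 26 without Dox, and with Dox 35 higher and 2 lower (Ndufb11 and Ndufa13); the median of all genes was then -0.15 and -0.24. Leaving out 1 library gave 24 to 44 and 45 to 59, all higher. The other alternatives kept both counts within 1.5 times and 0 genes lower.

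For SR-3420 with Dox, 2 genes passed: 4 with a replicate block, 1 with only the groups of the comparison, 0 with that limit, 1 among genes that overlap no other, and 1 to 2 when 1 library was left out. The replicate block added Ndufa13 (log2 fold change -0.44, adjusted p = 0.0207) and Ndufab1 (0.51, adjusted p = 0.00136). The ISO interaction passed for 0 genes, for 1 without a filter on low counts (Ndufb3), and for 0 to 1 when 1 library was left out. SR-3420 without Dox and Dox in DMSO gave 0 under every alternative run, and the SR-3420 interaction gave 0 under all but the replicate block.

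Same-numbered libraries of different groups had correlated deviations over 0.1 in 34 of 45 pairs (0.041 to 0.266). Each of the 18 libraries correlated best with its own number. The methods describe 3 independent experiments, so the numbers may well pair the libraries. The main fit does not use them, and its counts differ from those of a fit that does. A replicate block gave 49 and 67 genes with ISO, which include all 42 and 55, 3 for the ISO interaction (Ndufa7, Ndufb3 and Ndufs7) and 1 for the SR-3420 interaction (Cox7a2, 0.66, adjusted p = 0.00738). For named genes, in the comparisons where they passed or were among the 5 smallest p, 1136 of the alternative values kept their side of the threshold, 154 lost a call, 16 gained one and 0 turned sign; calls gained elsewhere are not in these numbers. The median SE of 0.17 to 0.18 (log2), and 0.24 to 0.25 for interactions, limits what could be seen. Scaled to library totals alone, the log2 ratio of the complex V sum with ISO without Dox was 0.28 (0.45 with TMM) and that of complex IV with Dox 0.49 (0.63 with TMM).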
